A study of Mus musculus with 16 samples.

Results

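A set of 10 genes of the CTCF and cohesin system was followed through the 4 RNA-seq libraries of the series. Its members were taken by gene symbol from the deposited expression tables, and the symbols were Ctcf, Smc1a, Smc3, Rad21, Stag1, Stag2, Nipbl, Wapal, Pds5a and Pds5b. All 10 were present, out of 22440 genes in each table. The series set out to relate DNA breaks made by neuronal activity to early-response gene expression, in primary neurons of the cortex of Swiss-Webster mouse embryos at embryonic day 16. The RNA libraries were a culture titled CTRL (the etoposide control), a culture titled Etoposide, for which the labels give 5 µM, a culture titled CTRL2 (the NMDA control) and a culture titled NMDA. The labels give 50 µM NMDA for 10 min and then 10 min without it for most experiments, and give no length of exposure for etoposide. The titles of both controls name no treatment. Etoposide holds type II topoisomerases on the DNA ends they have cut, and NMDA opens a class of glutamate receptor. The other 12 samples are chromatin samples and were not analysed here. Since each group is a single library, differences could not be checked against replicates and p-values are left out. Values of the 4 libraries are listed in the order CTRL, Etoposide, CTRL2 and NMDA wherever 4 are given together.

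Cohesin is a ring of the paired ATPases SMC1A and SMC3 closed by RAD21, with a STAG subunit bound to RAD21. NIPBL loads the ring and drives the extrusion of DNA loops, WAPL (Wapal in these tables) releases it, and the PDS5 proteins bind the ring and take part in both its release and its protection. CTCF is a zinc finger protein that stops the ring at its binding sites, so that loop ends form there. In dividing cells the ring also holds sister chromatids together, while in neurons, which no longer divide, it is known for its role in genome folding and gene control. Topoisomerase IIβ, the isoform of neurons and a target of etoposide, is found at sites bound by CTCF and cohesin.

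Promoter sequences were available from RefSeq (build GRCm38.p6) for 7 of the 10 members, with Wapal listed as Wapl. Rad21, Stag2 and Nipbl had no entry. The window of 300 bases, 250 before and 50 after the start, held 58.3% G and C in Smc1a, the lowest, and 80.3% in Pds5a, the highest, against a median of 52.7% over 27025 promoters. CpG pairs stood at 0.90 to 1.16 of the number expected from base content in the 7 members, and the median of all promoters was 0.39. The upstream 250 bases of 4 members are shown because they form the 2 pairs, of 5 examined, whose ratio differed beyond counting error between a treated library and its own control (Smc1a with Smc3 for etoposide, Pds5a with Pds5b for NMDA). They are written 5′ to 3′ on the strand of the gene, and capitals mark matches, on either strand, to the motif letters described after them.
Smc1a (chrX:152016178-152016427, plus strand): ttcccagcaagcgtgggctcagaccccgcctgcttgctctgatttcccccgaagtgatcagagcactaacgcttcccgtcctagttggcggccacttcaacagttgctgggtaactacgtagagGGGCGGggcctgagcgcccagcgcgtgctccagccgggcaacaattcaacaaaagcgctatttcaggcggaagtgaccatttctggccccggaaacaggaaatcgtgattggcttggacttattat
Smc3 (chr19:53600146-53600395, plus strand): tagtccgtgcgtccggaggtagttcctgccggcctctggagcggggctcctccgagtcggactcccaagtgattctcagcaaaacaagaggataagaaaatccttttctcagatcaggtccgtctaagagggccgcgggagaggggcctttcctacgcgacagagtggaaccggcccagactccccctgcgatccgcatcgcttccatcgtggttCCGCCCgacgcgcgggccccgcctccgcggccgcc
Pds5a (chr5:65698237-65698486, minus strand): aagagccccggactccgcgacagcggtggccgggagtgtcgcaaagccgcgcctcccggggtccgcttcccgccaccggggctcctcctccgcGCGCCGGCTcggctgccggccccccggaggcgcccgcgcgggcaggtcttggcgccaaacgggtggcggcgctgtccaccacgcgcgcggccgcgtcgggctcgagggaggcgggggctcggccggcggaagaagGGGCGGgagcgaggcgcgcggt
Pds5b (chr5:150673577-150673826, plus strand): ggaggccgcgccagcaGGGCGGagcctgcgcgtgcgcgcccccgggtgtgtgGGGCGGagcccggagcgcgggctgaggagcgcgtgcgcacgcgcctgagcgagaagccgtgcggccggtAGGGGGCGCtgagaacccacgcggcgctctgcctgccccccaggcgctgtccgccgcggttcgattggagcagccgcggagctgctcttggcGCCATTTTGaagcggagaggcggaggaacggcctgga

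Motifs were searched on both strands of the 300-base windows as plain letters, and the set was chosen after the promoters had been read. Letters of a further factor, NRF1, were also searched and are not reported here. AGNNGGCGC, letters of part of the CTCF core, were in 4 of the 7 members (Ctcf, Wapal, Pds5a and Pds5b). They were in 7.32% of all promoters and in 17.0% of the 9068 promoters with at least the G and C content of Smc1a. The bases marked N were left free, so the search was looser than the core. These bases read CC or TT in Ctcf, CC in Wapal and Pds5a, and GG in Pds5b. The 4 promoters held 75.3%, 67.0%, 80.3% and 75.7% G and C, well above that cut, so 17.0% is not a share matched to them. The GCCATNTTG letters of YY1, a factor that joins promoters to enhancers, were in Ctcf, Smc3 and Pds5b, in 2.65% of all promoters and in 3.84% of the G and C rich ones. In all 3 the match lay on the strand of the gene, and it began at base 11 after the start in Ctcf, at the start base in Smc3 and 37 bases before the start in Pds5b. The search fixed every base of the match but the N, and at that base the 3 sites also read alike (match in capitals).
Ctcf: cgcgccgccGCCATTTTGtgtccgagcc
Smc3: gcggccgccGCCATTTTGtttggccaca
Pds5b: gctcttggcGCCATTTTGaagcggagag
GGGCGG, the letters of SP1, were in all 7, in 35.9% of all promoters and in 77.5% of the rich ones. CCGGAAG, the letters of ETS factors, were in 0 of the 7, in 9.12% of all promoters and in 16.4% of the rich ones. No match overlapped a match to another of these motifs. A match of letters does not show that a factor binds there.

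Expression was deposited in FPKM, a level scaled to transcript length and to the fragments sequenced. From the size of 1 fragment in single-exon genes, the totals behind this scaling came to about 14.2, 11.7, 18.9 and 17.7 M fragments. Intervals given with the values are exact 95% intervals from approximate fragment numbers, and they cover counting error only. All 7 neuron markers found in the tables were at 1 FPKM or more in every library, but so were 7 or 8 of 8 astrocyte markers, and all 8 oligodendrocyte lineage markers in the NMDA control. Microglial markers summed to at most 4.80 FPKM, over 8 genes, in any library.

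Rad21 was the most abundant transcript of the group in every library, and Stag2 came next in every library. Rad21 (chromosome 15, 51794150 to 51823306, mm9), the subunit that closes the ring, was at 10.7, 8.75, 36.6 and 35.7 FPKM. Its level exceeded that of 74.9% of the genes at 1 FPKM or more in the etoposide control and 80.9% in the NMDA control, while its FPKM was 3.42-fold higher in the second. Stag2 (chromosome X, 39502589 to 39630352), a STAG subunit, was at 7.41, 4.49, 22.3 and 23.7 FPKM. Stag1 (chromosome 9, 100544042 to 100858963), its paralog, was at 2.61, 1.66, 9.19 and 9.74 FPKM, the lowest member in the etoposide pair and next to the lowest in the NMDA pair. Over the 10 members the highest level was 4.09, 5.27, 4.02 and 3.94 times the lowest in the 4 libraries.

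The ATPase subunits took different places in the order of the members from library to library. Smc1a (chromosome X, 148450971 to 148496516) was at 4.46, 2.23, 21.3 and 19.4 FPKM. Smc3 (chromosome 19, 53674886 to 53720321) was at 4.82, 3.50, 17.9 and 17.5 FPKM. Smc1a thus ranked eighth and ninth of the members in the etoposide pair and held the third place in the NMDA pair. In the etoposide control the counting intervals of neighbours overlapped from Pds5b, in the third place, down to Nipbl in the ninth, so those 7 are not ordered step by step at this depth. With etoposide this held from Stag2, in the second place, to Stag1 in the last. In the NMDA control the order was resolved except between Stag2 and Smc1a, Ctcf and Wapal, Pds5a and Pds5b, and Stag1 and Nipbl.

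Nipbl was the lowest of CTCF and the loading and release factors in every library. In the etoposide pair its counting interval overlapped that of Wapal in the control and those of Wapal, Pds5a and Pds5b with etoposide. Ctcf (chromosome 8, 108160438 to 108206822) was at 4.83, 3.26, 14.3 and 14.2 FPKM. Nipbl (chromosome 15, 8241225 to 8394463), the loader, was at 3.81, 2.35, 9.09 and 9.06 FPKM, and Wapal (chromosome 14, 35487114 to 35559403), the releasing factor, at 4.57, 2.88, 13.7 and 14.6. Pds5a (chromosome 5, 66006499 to 66089095) was at 4.84, 2.41, 11.9 and 11.7 FPKM. Pds5b (chromosome 5, 151476402 to 151613245) was at 5.10, 2.89, 11.8 and 15.2 FPKM, and it was the member that stood furthest from its own control in the NMDA library. Exons of the 10 members overlapped no other gene of the annotation on either strand.

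**Figure D1:**
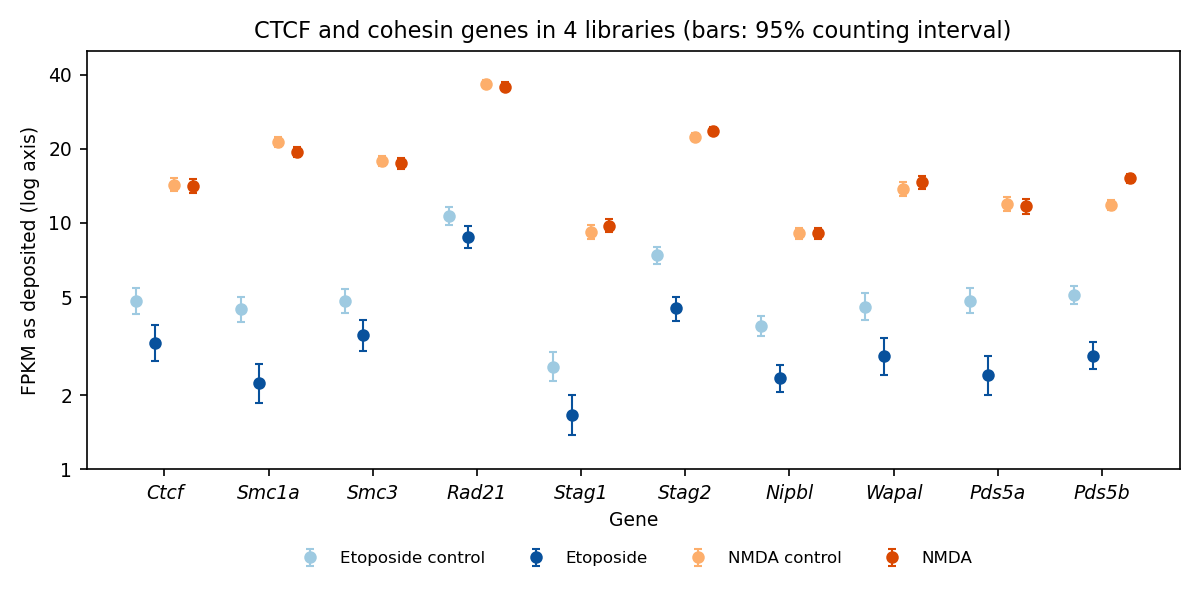
FPKM as deposited (log axis) of the 10 genes in the 4 libraries, with bars for 95% counting intervals. Each gene is lower in the etoposide library than in the etoposide control, the NMDA pair lies above the etoposide pair throughout, and Pds5b is the gene with the widest gap between NMDA (15.2 FPKM) and its control (11.8 FPKM).

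Every member was lower in the etoposide library than in the etoposide control, by 1.22-fold for Rad21 to 2.01-fold for Pds5a as a plain ratio of FPKM. FPKM of the median gene was lower too, with a ratio of 0.747, and the median ratio of the 10 members was 0.622. The median gene was taken over 10527 genes above 0 in both libraries and at 1 FPKM or more in either, with a known transcript length. FPKM is scaled within each library, so this ratio does not show less RNA as a whole. All 10 counting intervals lay below 1, as did those of 54.1% of the genes compared, and 0 lay above 1, against 7.43%. On the log2(FPKM + 1) scale, used for genes at 1 FPKM or more in either library and passed by all 10, 10 of 10 were below 0, against 76.7% of 10681 genes, and 0 above 0, against 23.3%. The members' median was -0.52 and that of all genes -0.32. None of the 10 was at least 2-fold lower on this scale, against 7.36% of all genes, and none at least 2-fold higher, against 0.477%. With both libraries scaled to one median the shares of all genes were 1.83% and 1.61%, and those of the members still 0. The authors' deposited table of etoposide lists 3.03% of all genes that were lower in these libraries and 0.0535% that were higher, and it held 0 of the 10.

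Pds5a and Smc1a stood lowest. Pds5a, at 4.84 FPKM without and 2.41 with etoposide, had a ratio of 0.499 (interval 0.399 to 0.620). Smc1a, at 4.46 and 2.23 FPKM, had a ratio of 0.500 (0.402 to 0.620). Both intervals lay wholly below the ratio of the median gene. Pds5b at 0.567 (0.485 to 0.660), Stag2 at 0.607 (0.528 to 0.696) and Nipbl at 0.615 (0.525 to 0.720) also had intervals below it. These 5 of 10 compare with 28.9% of all genes whose interval lay below the median ratio, and 0 of 10 lay above it, against 25.1%.

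The other members could not be told from the median gene at this depth. Ctcf had a ratio of 0.675 (interval 0.547 to 0.830), Stag1 of 0.637 (0.504 to 0.802) and Wapal of 0.629 (0.506 to 0.780). Smc3 was at 0.726 (0.606 to 0.868), and Rad21 at 0.820 (0.716 to 0.937) was the member nearest to its control. In the control these values rested on about 219 fragments for Stag1 to 546 for Rad21, so a gap of the size seen for Wapal lies within counting error of the median gene. When both libraries were scaled to one median, Rad21 stood at 0.13 on the log2 scale, above its control, and the other 9 stayed below theirs, from -0.03 for Smc3 to -0.44 for Pds5a.

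**Figure D2:**
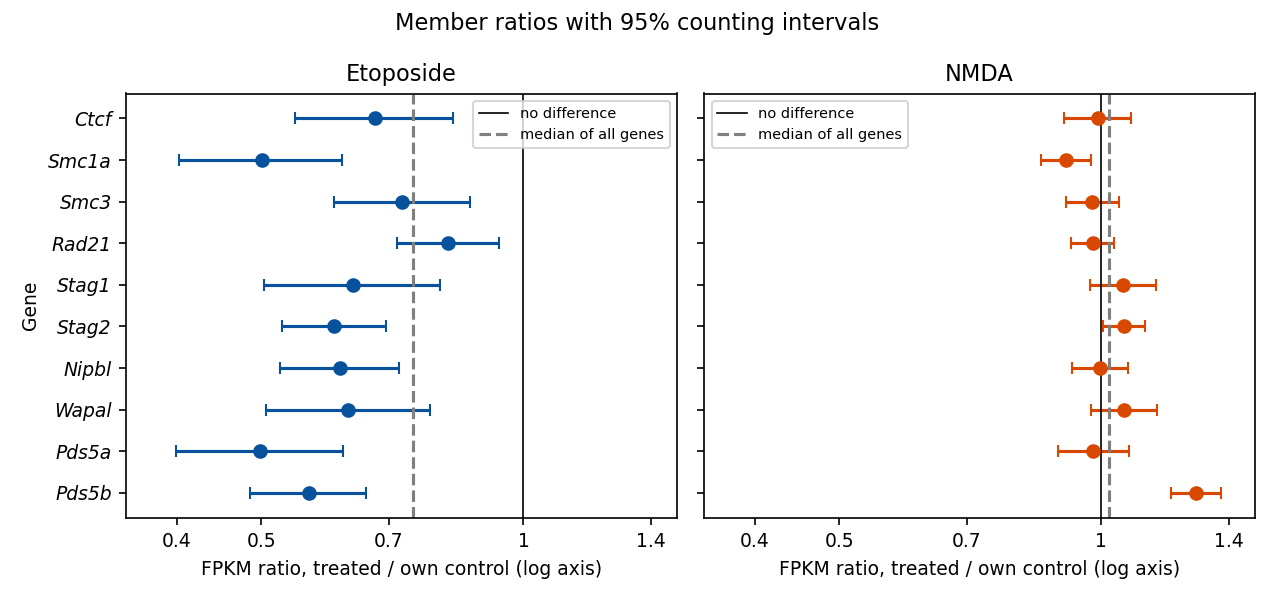
FPKM ratio of each treated library to its own control (log axis) for the 10 genes, with bars for 95% counting intervals, a solid line at no difference and a dashed line at the median ratio of all genes. With etoposide Smc1a, Stag2, Nipbl, Pds5a and Pds5b lie wholly below the dashed line, and with NMDA Pds5b lies above it and Smc1a below it.

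Long genes were lower as a class in the etoposide comparison, and most members are long. With all genes split by genomic span into 5 classes of equal size, the median log2 value was -0.09 in the class of the shortest, -0.42 in the next to longest and -0.67 in the longest. The longest class held 5 members (Stag1, Stag2, Nipbl, Pds5a and Pds5b), the next 4 (Ctcf, Smc1a, Smc3 and Wapal) and the middle one Rad21. Set against the median of all genes 9 of the 10 were lower, but set against the median of their own class 4 were (Ctcf, Smc1a, Wapal and Pds5a), and the median difference from the own class was 0.02. Stag1, the longest at 315 kb, was at -0.44, which is 0.23 above its class. Smc1a, at 45.5 kb, was at -0.76, a difference of -0.34 from its class. Across the 10 members, which share the same 2 libraries, Spearman's rho of the log2 value with span was -0.33 for etoposide and 0.71 for NMDA, given as a description. The part of span in the members' values was not tested beyond these classes.

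**Figure D3:**
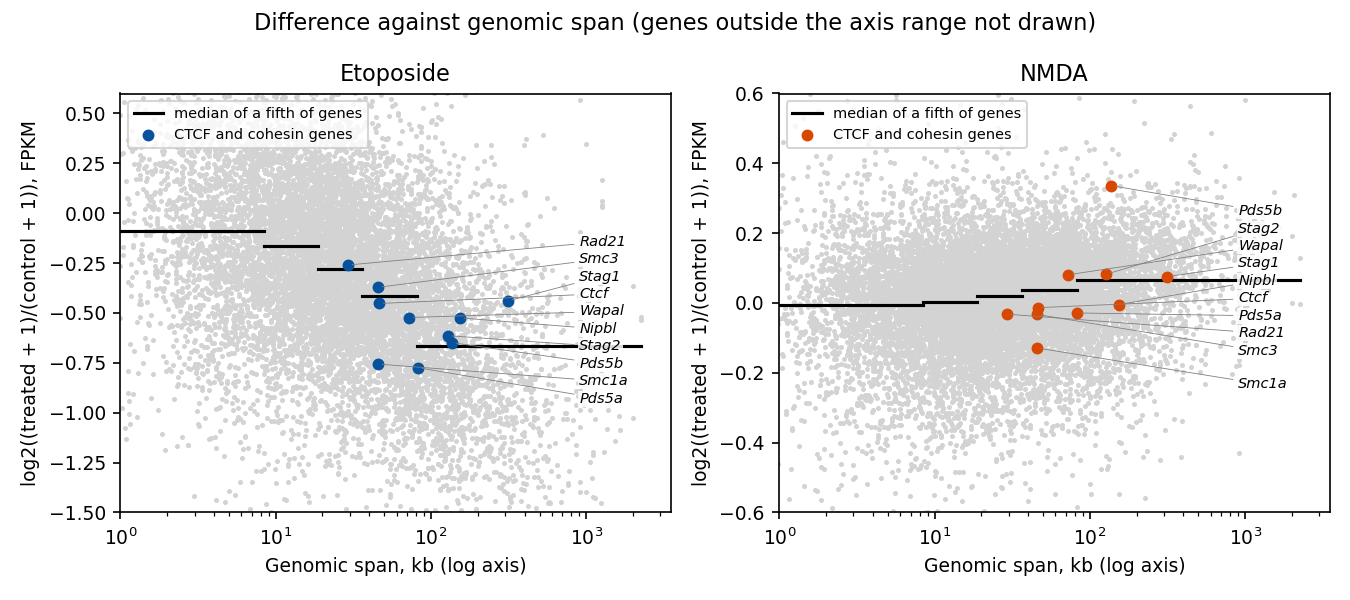
Difference between treated library and own control, as log2((treated + 1)/(control + 1)) of FPKM, against genomic span in kb (log axis), with all genes in grey, the 10 members in colour and black lines for the median of each of 5 classes of genes by span. With etoposide most members lie near the line of their own class, with Smc1a (-0.76) below and Stag1 (-0.44) above, and with NMDA Pds5b (0.34) lies above.

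With NMDA the members differed little from their own control, and Pds5b was the exception. Pds5b was at 11.8 FPKM without and 15.2 with NMDA, a ratio of 1.28 (interval 1.20 to 1.37), from about 1634 and 1965 fragments. Its log2 value of 0.34 was above that of 98.1% of the genes compared. No member was at least 2-fold higher or lower, against 0.438% and 0.729% of 13028 genes. The authors' deposited table of NMDA lists 0.111% of all genes that were higher in these libraries and 0.169% that were lower, and it held 0 of the 10.

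The other 9 members lay between 0.910 and 1.06 times their control. Smc1a was the lowest at 0.910 (interval 0.851 to 0.974), from 21.3 to 19.4 FPKM. Stag2 was at 1.06 (1.00 to 1.12), so 2 of 10 intervals lay above 1, against 20% of all genes, and 1 of 10 below 1, against 10.4%. Relative to the median ratio of all genes, 1.02, Pds5b was the 1 member above (14.8% of all genes) and Smc1a the 1 member below (13.7%). Ctcf was at 0.990 (0.905 to 1.08), Smc3 at 0.976, Rad21 at 0.977, Nipbl at 0.996 and Pds5a at 0.979, with intervals that held 1. Stag1 and Wapal, at 1.06 each, did too. In all, 4 members were above 0 on the log2 scale and 6 below, against 57.2% and 42.8% of all genes, and the members' median was -0.0090 against 0.02.

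Ratios of partner genes inside a library do not depend on how that library was scaled. The ratio of Smc3 to Smc1a was 1.08 (interval 0.922 to 1.27), 1.57 (1.25 to 1.98), 0.840 (0.786 to 0.898) and 0.901 (0.839 to 0.967) in the 4 libraries. It was thus 1.45 times as high with etoposide as in its control (1.10 to 1.91). The 2 controls also differed, at 0.776 times (0.655 to 0.920), in a comparison with no treatment in either title. The etoposide library lay above both controls and the NMDA library between them.

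The ratio of Pds5b to Pds5a was 1.05, 1.20, 0.988 and 1.30 in the 4 libraries. It was 1.31 times as high with NMDA as in its control (interval 1.17 to 1.47), and 1.14 times with etoposide (0.874 to 1.48), where the interval holds 1. Between the 2 controls the change was 0.936 (0.794 to 1.10), an interval that also holds 1. The NMDA value of 1.30 lay above both controls.

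The ratio of Stag2 to Stag1, transcripts of the STAG paralogs, was 2.84, 2.71, 2.42 and 2.43 in the 4 libraries. Its change was 0.953 with etoposide (interval 0.732 to 1.24) and 1.00 with NMDA (0.904 to 1.11). A difference in the mix of STAG transcripts was thus not detectable at this depth. Rad21 to Smc3 was 2.21, 2.50, 2.04 and 2.05, with changes of 1.13 (0.907 to 1.41) and 1.00 (0.915 to 1.10). Wapal to Nipbl, transcripts of the releasing factor and the loader, was 1.20, 1.23, 1.51 and 1.61. Its changes were 1.02 (0.788 to 1.33) and 1.07 (0.951 to 1.19). This last ratio was 1.26 times as high in the NMDA control as in the etoposide control (1.06 to 1.50). Of the 15 changes in ratio examined, 4 had an interval without 1, and 2 of those 4 were between the controls.

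**Figure D4:**
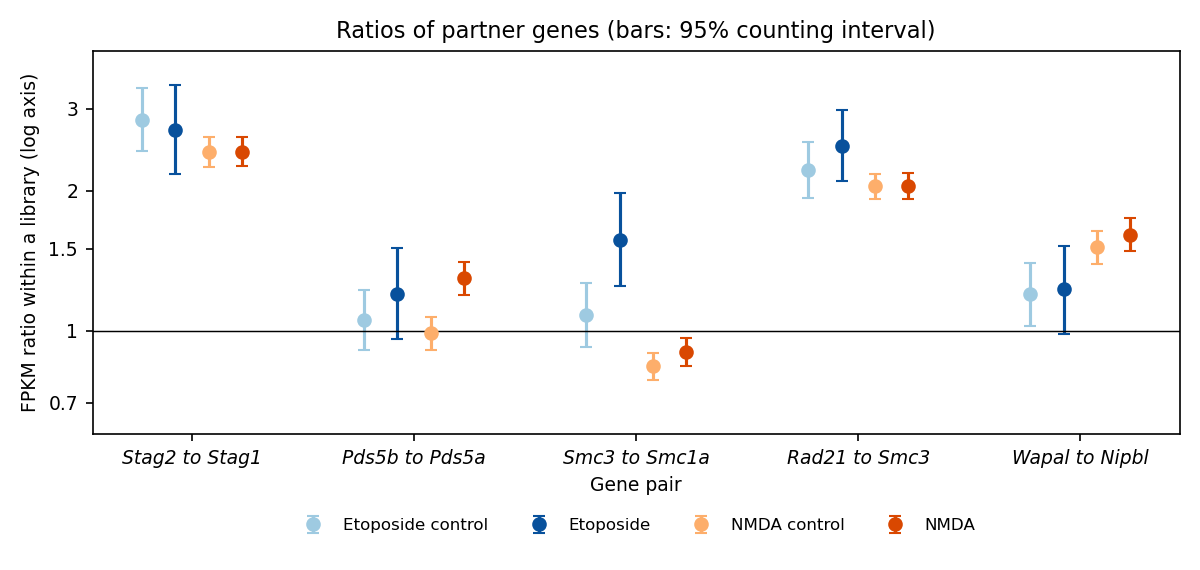
Ratio of FPKM of 2 partner genes within each library (log axis), with bars for 95% counting intervals. Smc3 to Smc1a is highest with etoposide (1.57) and below 1 in the NMDA pair, Pds5b to Pds5a is highest with NMDA (1.30), and Stag2 to Stag1 has overlapping intervals in all 4 libraries.

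The 2 controls, with no treatment in their titles, were also set against each other. Each is a single library, and how much of a shift shared by most genes comes from FPKM scale was not tested. Genes did not all differ by the same factor. Neuron markers summed to 564 FPKM in the etoposide control and 1460 in the NMDA control, and astrocyte markers to 83.9 and 658. As deposited, every member was higher in the NMDA control than in the etoposide control, by 2.31-fold for Pds5b to 4.78-fold for Smc1a, and the median gene was 3.12-fold higher. All 10 were at least 2-fold higher on the log2(FPKM + 1) scale, as were 75.1% of all genes. All 10 were above 0 on it, against 98.4%, and 0 below 0, against 1.63%. All 10 intervals lay above 1, against 97.5%, and 0 below 1, against 0.819%. Relative to the median ratio, 3 members had intervals above (Smc1a, Smc3 and Rad21, against 32% of all genes) and 3 below (Nipbl, Pds5a and Pds5b, against 32.9%).

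The 4 libraries were therefore also scaled to one median over the 9533 genes at 1 FPKM or more in each, a step chosen after these differences were seen. On this scale Smc1a was at 7.27, 4.92, 11.4 and 10.1. The etoposide value lay below both controls, but the controls themselves differed by 1.56-fold. Pds5a was at 7.89, 5.31, 6.38 and 6.09, again with etoposide below both. Pds5b was at 8.32, 6.37, 6.30 and 7.89, so that its NMDA value lay between the 2 controls and its own control was the lowest library. The NMDA difference of Pds5b therefore held against the NMDA control and did not hold against the etoposide control, where it was -0.05 on the log2 scale after scaling. Ctcf had the narrowest spread of the members, at 7.88, 7.19, 7.64 and 7.37.

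On this scale 7 of the 10 members (Ctcf, Smc1a, Smc3, Stag1, Stag2, Wapal and Pds5a) were below both controls in the etoposide library, against 30.9% of all genes. None of the 10 was above both, against 37%. With NMDA, 3 were below both (Ctcf, Nipbl and Pds5a, against 26.4% of all genes) and 3 above both (Stag1, Stag2 and Wapal, against 23.2%). Some of these gaps were small, such as 7.71 with etoposide against 7.86 in the lower control for Smc3.

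**Figure D5:**
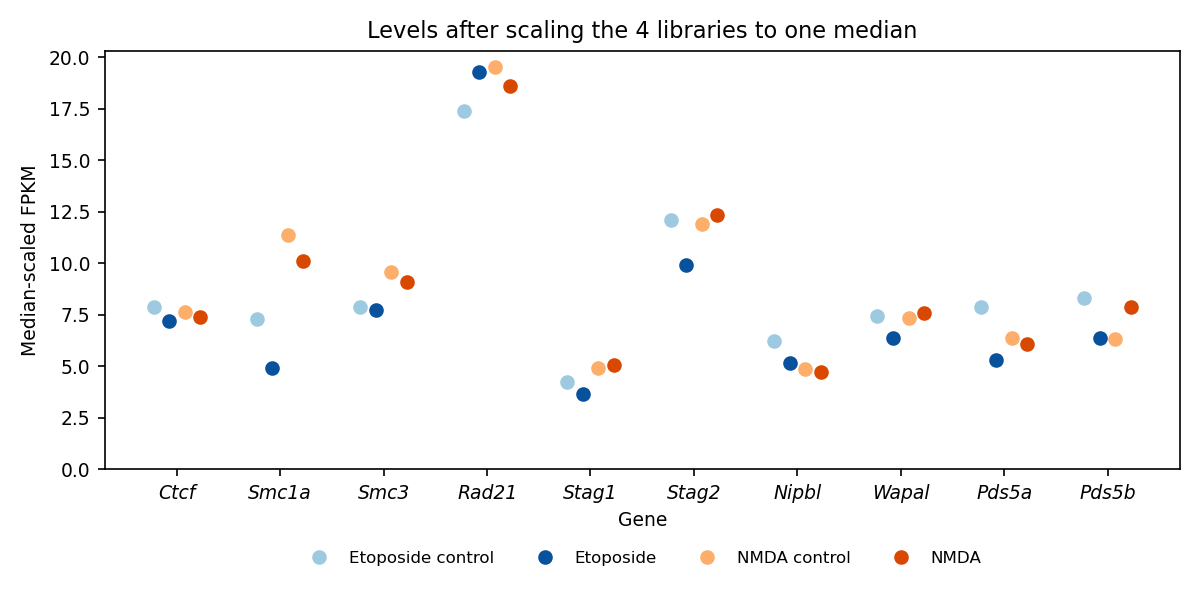
FPKM of the 10 genes after the 4 libraries were scaled to the same median, 1 point per library. Smc1a spans 4.92 to 11.4, the widest relative range, Ctcf spans 7.19 to 7.88, and the Pds5b point of the NMDA library (7.89) lies between its 2 controls (6.30 and 8.32).

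Summed markers of cell types differed between the libraries, as did FPKM of the median gene. As deposited, the median gene was 3.12-fold higher in the NMDA control than in the etoposide control. Its ratio to the own control was 0.747 with etoposide and 1.02 with NMDA. Summed FPKM of 7 neuron markers was 564, 344, 1460 and 1556, and that of the 10 members 53.1, 34.4, 168 and 171. Progenitor and dividing-cell markers (12 genes, none at 0) summed to 83.6, 30.6, 433 and 382 FPKM. Vim made up most of each sum, at 72.5, 24.4, 314 and 257 FPKM, so the sums say little about dividing cells. Among the others Mki67, a marker of cycling cells, was at 0.271, 0.0962, 4.20 and 4.21 FPKM. Not every marker of this list was lower with etoposide. Ccnb2 (0.327 without and 0.333 with it) and Eomes (0.0312 and 0.0882) were higher, Ccna2 (1.08 and 1.04) was near its control, and the rest were lower. Astrocyte markers (8 genes) summed to 83.9, 43.7, 658 and 621 FPKM, oligodendrocyte lineage markers to 20.3, 4.72, 194 and 189, and vascular or mural markers to 12.9, 1.31, 66.4 and 55.3. Mag in the etoposide control and Sox10 with etoposide were the oligodendrocyte markers at 0. Among vascular markers Cldn5 and Cdh5 were at 0 in all libraries but the NMDA control, and Kdr was also at 0 with etoposide. C1qb was at 0 in both libraries of the etoposide pair and C1qa in its control. The part of cell makeup in the members' values was not tested, and in bulk RNA fewer cells of a type and less RNA per cell cannot be told apart.

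Of 21 further cohesin regulators and meiotic variants, 5 could be compared with etoposide, and all 5 were below 0 (76.7% of all genes, the share for each such count here) with a median of -0.20, which is 0.12 above that of all genes. Mau2, the partner of NIPBL in loading, was at 11.6 FPKM without and 9.95 with etoposide, and Esco1, which acetylates SMC3, at 3.83 and 2.53. With NMDA 12 could be compared, of which 4 were above and 8 below 0 (57.2% and 42.8% of all genes), with a median of -0.13. Of the condensin and SMC5/6 genes, which form the sister SMC rings, 11 of 12 were below 0 with etoposide, with a median of -0.29, but 5 of 12 were below the median of all genes. Some reached 1 FPKM in the control only, which fixed their sign, such as Smc2 (1.07 without and 0.561 with etoposide) and Smc4 (1.43 and 0.806). The 1 above 0 was Nsmce1, a SMC5/6 subunit, at 5.51 and 10.1 FPKM. With NMDA the same list split into 7 above and 7 below 0. In both lists 0 genes were at least 2-fold higher or lower in either comparison, against 0.477% and 7.36% of all genes with etoposide and 0.438% and 0.729% with NMDA.

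Among 25 other factors of chromatin architecture and enhancer contact, 23 were below 0 with etoposide, against 76.7% of all genes, with a median of -0.58, beside -0.52 for the members, and 20 were below the median of all genes. Top2b was at 24.2 and 12.5 FPKM, Chd4 at 13.0 and 6.81 and Adnp at 12.4 and 6.67. With NMDA 16 of 26 were above 0, against 57.2%, with a median of 0.03. Clustered protocadherins are neuronal surface proteins whose promoter choice is known to rest on CTCF and cohesin. Of 59 such genes 47 passed the filter in the etoposide comparison. All 47 were below 0, against 76.7% of all genes, with a median of -0.52, and 40 were below the median of all genes. Several of the 47 reached 1 FPKM in the control only. For those a value below 0 was fixed by the filter, so the count of 47 is a description only. Of the 47 genes, 2 were at least 2-fold lower, against 7.36% of all genes (Pcdhgc4, at 7.02 and 2.15 FPKM, and Pcdhgc3, at 10.5 and 4.47). With NMDA 40 of 54 were above 0, against 57.2% of all genes, with a median of 0.07. The 1 at least 2-fold higher (0.438% of all genes), Pcdha4-g, was listed at 0 in the control and at 2.64 FPKM with NMDA. Genes of the alpha and gamma clusters share exons, so their FPKM are uncertain and not independent.

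Genes with the most similar course over the 4 libraries were sought by Euclidean distance to the mean profile of the members on the median-scaled log2(FPKM + 1) scale, each gene centred on its own mean. Of 3875 other genes at 5 FPKM or more in every library, the nearest were Kif5b (distance 0.014), Apbb1 (0.031), Pomgnt1 (0.035), Palm (0.038) and Ptplad1 (0.038). Kif5b, a kinesin motor, was at 14.6, 9.13, 44.9 and 46.3 FPKM. The members themselves lay at 0.040 (Wapal) to 0.66 (Smc1a), beside a median distance of 0.52 for the 3875 other genes. The members were not held to the filter of 5 FPKM, which only Rad21 of them met in every library. Their distances are therefore not strictly comparable with those of the other genes. Smc1a was the 1 member beyond that median, and 2552 of the other genes were nearer than it, while the other 9 members lay at 0.33 or less. The members' own values make up the mean profile, so their nearness to it is no result.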

How the data were processed

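RNA of 4 cultures was sequenced in paired ends after a total RNA kit, per the labels' protocols. Expression levels were computed by the authors as FPKM and are used here as deposited. Per the submitters' processing notes the build was mm9 and the tools included Cufflinks 2.0.0 and Cuffdiff, TopHat, Bowtie, HOMER, Picard and BWA, whose roles and order those notes leave unstated. The authors' deposited tables of 692 genes (etoposide) and 63 (NMDA) served as gene lists. Their 4 FPKM columns were not used, since the control column names no sample, and what put a gene on a list is not given in the sources used.

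Groups follow the sample titles. Each treated library was set against the control of its pair, as plain FPKM ratios and as log2 of (treated + 1) over (control + 1), the pseudocount being 1 FPKM, for genes at 1 FPKM or more in either library. The sign of a gene that reached 1 FPKM in only 1 library of a pair was fixed by this filter. A test was not possible, because a group held a single library. One was added to each locus start, which the tables count from 0. The FPKM of 1 fragment on 1 kb, read from single-exon genes, was 0.0704, 0.0854, 0.0528 and 0.0564 (CTRL, Etoposide, CTRL2, NMDA). With the length of the coding GENCODE transcript whose ends lay nearest the listed locus, it gave approximate fragment numbers. Intervals of ratios are exact conditional 95% intervals, and those of a change in a ratio use a normal approximation on the log scale. Several isoforms per gene make these numbers approximate.

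The 10 members and the other lists were chosen with earlier results of these data known. Of each other list, up to 5 genes with the largest difference were open to naming, and by a rule the 5 genes nearest the mean profile were named. Mki67, Vim, Ccnb2, Eomes and Ccna2 were named after their values were seen. Alternatives were other pseudocounts, filters, scalings, the other control and classes by genomic span. The fold and interval steps were tested on simulated data. Computation used numpy 2.4.6, scipy 1.17.1 and pandas 2.3.3.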

Additional observations from a re-analysis of the deposited data

How the results depend on the processing

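With 1 library per group no replicate could be left out. No paired analysis was possible because each group had 1 library. With etoposide the members' median log2 value of -0.52 stayed below 0 under every alternative run. It was -0.19 with median scaling, -0.18 with upper quartile scaling, -1.93 against the other control and -0.20 against it with median scaling. A pseudocount of 5 FPKM gave -0.27, and -0.11 relative to all genes. Median scaling moved the median of all genes from -0.32 to 0.0081. The members' median relative to all genes, -0.20, was -0.50 with no filter on low values, and against genes of the same span class it was 0.02, the opposite sign. The count at least 2-fold lower, 0, became 10 against the other control (84.5% of all genes), 1 against it with median scaling (Smc1a, -1.05, with 8.85% of all genes) and 1 with no pseudocount (Pds5a, with 15.9% of all genes), the last alternative chosen after seeing the data. With a filter of 5 FPKM, 3 members were left.

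With NMDA the members' median of -0.0090 became 1.52 against the other control, the relative median of -0.03 became 0.16 and 10 members were at least 2-fold higher, as were 76.5% of all genes. The median gene was 3.12-fold higher in the NMDA control than in the etoposide control. With median scaling added, the members' median was 0.04. Between the controls, median scaling took the members' median from 1.44 to -0.0099, the relative median from 0.11 to -0.051 (also -0.051 with no pseudocount, and -0.04 with a pseudocount of 0.1 FPKM) and the count at least 2-fold higher from 10 to 0, and it turned Ctcf to -0.031, Stag2 to -0.0088, Nipbl to -0.30, Wapal to -0.011, Pds5a to -0.26 and Pds5b to -0.35. Stag2 to Stag1 computed from FPKM + 1 was 2.33 in the etoposide control and 2.06 with etoposide. The added 1 lowers a ratio above 1 by construction, and for the other moved values the cause was not tested. Depth limits the etoposide pair most, with about 115 fragments for Stag1 with etoposide.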
